A study of Rattus norvegicus with 47 samples.

Results

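Cortex from the side of a brain injury was compared with cortex from the opposite side at 24 h after injury, on 16 of the 47 rat oligonucleotide arrays of the series. The arrays were chosen by their labels alone: 8 carried ipsilateral cortex (extraction numbers 33 to 40) and 8 carried contralateral cortex (numbers 41 to 48), all 24 h after injury. Each array is called here by its extraction number. All 16 share the organism (rat), the use of total RNA taken up in Trizol, and a treatment entry of "wait". The labels used here name no strain, sex, age or kind of injury, do not set sham-operated animals apart, and do not say which arrays share an animal. Contralateral cortex is therefore the other side of the brain and cannot be taken as uninjured tissue. Whether any of the 16 samples came from a sham-operated animal cannot be told. Since no label says that the samples are separate animals, a p-value here covers variation among samples that could be partly technical.

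An injury to the cortex is known to draw in and activate phagocytes, the resident microglia and macrophages from the blood, which clear debris and make osteopontin, galectin-3, complement C1q and lysosomal enzymes. Astrocytes near the damage enlarge, build intermediate filaments such as vimentin, and make small heat shock proteins and protease inhibitors. Glial cells also re-enter the cell cycle in the days after an injury, and growing or dividing cells need more ribosomes. These processes set the order of the gene groups below.

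The named transcripts that rose on the side of the injury at 24 h were those of a phagocyte product, a stress protein, an enzyme of dividing cells and a ribosomal protein. Of the 7503 probe sets tested, 7 rose and 1 fell, which is 0.107% called in either direction, 0.0933% higher and 0.0133% lower (limma's moderated test, Benjamini-Hochberg adjusted p = 0.0498 for each). The genes named by these calls were Spp1, Hspb1, Top2a and Rpl21, which rose, and Matk, which fell. The other 3 calls lay on probe sets without a single gene name, and all 3 rose. At the unadjusted level 575 probe sets had a p under 0.05 where 375 would be expected by chance, 4.52% of all tested on the higher side and 3.15% on the lower side. The calls sit at the edge of the threshold: none was left when any 1 of 10 arrays (37, 38, 39, 40, 42, 43, 44, 45, 46 or 48) was taken out, 3 were left without array 41, 6 without array 35, and 26, 16, 13 and 9 passed without array 33, 36, 47 or 34. No call was left either when dim probe sets were kept or in a fit of the 16 arrays alone, where 820 probe sets had an unadjusted p under 0.05, and Matk and AF028784mRNA#1_s_at did not pass after quantile normalization.

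The start regions of 3 of the called genes are shown because each of these genes stands for a different response: a phagocyte product, a stress protein and an enzyme of dividing cells. The sequences are the 250 bases before the RefSeq transcription start in the rat build GRCr8, printed 5′ to 3′ on the strand of the gene. Spp1 lies on chr14:5619805-5620054, Hspb1 on chr12:26432302-26432551 and Top2a on chr10:84473094-84473343, all on the minus strand. Capitals mark the matches to 4 motifs searched on both strands. The first is the TATA box, searched as TATAAA. The second is a pair of inverted heat shock element units, searched as GAANNTTC. The third is the CCAAT box, which reads ATTGG on the other strand. The last is the AP-1 site, searched as TGANTCA.
Spp1: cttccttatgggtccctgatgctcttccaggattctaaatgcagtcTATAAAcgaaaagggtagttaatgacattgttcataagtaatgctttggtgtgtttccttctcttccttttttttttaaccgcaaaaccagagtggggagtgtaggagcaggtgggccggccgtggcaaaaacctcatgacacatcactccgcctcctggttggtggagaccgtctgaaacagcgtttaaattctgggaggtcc
Hspb1: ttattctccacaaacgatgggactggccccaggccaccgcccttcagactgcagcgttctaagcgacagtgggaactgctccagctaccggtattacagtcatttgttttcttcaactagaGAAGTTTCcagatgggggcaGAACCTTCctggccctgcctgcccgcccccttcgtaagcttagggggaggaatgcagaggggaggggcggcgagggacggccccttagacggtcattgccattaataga
Top2a: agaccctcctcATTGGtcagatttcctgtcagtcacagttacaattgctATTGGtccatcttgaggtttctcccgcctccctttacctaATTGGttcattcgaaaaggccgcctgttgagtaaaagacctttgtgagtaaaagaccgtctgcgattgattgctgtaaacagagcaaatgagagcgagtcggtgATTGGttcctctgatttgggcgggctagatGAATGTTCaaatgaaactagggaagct
The Hspb1 window held 2 copies of the heat shock pair, GAAGTTTC and GAACCTTC, at bases 129 to 122 and 109 to 102 before the start. The Top2a window held 4 CCAAT boxes, all as ATTGG, and 1 heat shock pair at bases 27 to 20. The Spp1 window held 1 TATAAA at bases 204 to 199, and no window held TGANTCA. Among 33469 rat start regions of the same length, 7.23% held GAANNTTC at least 1 time, 34% CCAAT, 12.9% TATAAA and 6.34% TGANTCA. How many regions held several copies was not counted. These matches describe the letters only and are not binding data.

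Before the genes are described, the arrays themselves need a description, because the ipsilateral arrays were not alike. The 4 arrays 37, 38, 39 and 40 stood above the contralateral arrays in many glial and immune transcripts, while 33, 34, 35 and 36 lay close to them. Of the 7503 probe sets, 461 (6.14%) had 4 or more of the 8 ipsilateral arrays above every contralateral array, and 315 (4.2%) had 4 or more below. The opposite count, 4 or more of the 8 contralateral arrays above every ipsilateral array, was 599 (7.98%). Exactly 4 ipsilateral arrays were on top in 260 probe sets, and in 68 of these the 4 were 37, 38, 39 and 40. The next most frequent set of 4 was seen in 12 probe sets, and 57 of the 70 possible sets occurred at least once. On the low side, 37, 38, 39 and 40 were the lowest 4 in 15 of 204 probe sets, beside 12 for the next set. No probe set had all 8 ipsilateral arrays above all contralateral ones, and 1 had all of them below, Fhip2b (rc_AA892868_at), at −0.18 log2 units and unadjusted p = 0.0787 in limma. Fhip2b is named after its values were seen.

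**Figure D1:**
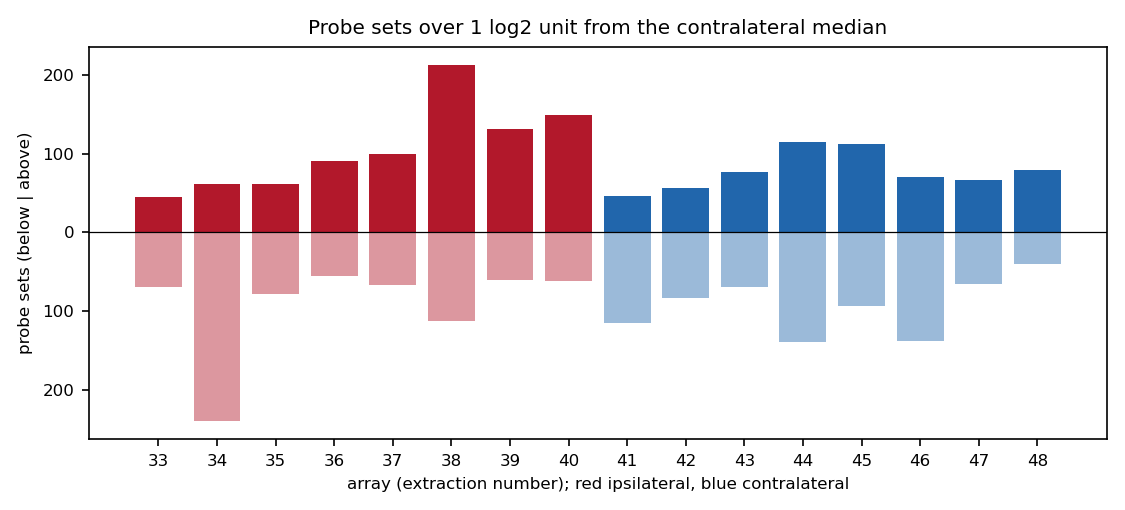
Bars give, for each of the 16 arrays, the number of tested probe sets over 1 log2 unit above (upward) or below (downward, paler) the contralateral median of that probe set, with ipsilateral arrays in red and contralateral arrays in blue. For a contralateral array the median was taken over the other contralateral arrays. Array 38 has the most high probe sets (213), and array 34 has the most low ones (240).

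Array 34 departed in the other direction. It had 240 probe sets over 1 log2 unit below the contralateral median, against 56 to 112 on the other ipsilateral arrays. The contralateral arrays had 40 to 139, each compared with the median of the other contralateral arrays. The median signal of array 34, 665, was the lowest of the 16, which ran up to 801.4. Between the sides the array measures were close, with exact two-sided permutation p of 0.373 for the 10th percentile of log2 signal, 0.902 for the median, 0.608 for the 3′ to 5′ ratio of Gapdh and 0.909 for that of beta-actin (adjusted p = 0.909 for each of the 4). Pearson's r across probe sets, which are not independent replicates, was 0.966 to 0.984 among ipsilateral arrays and 0.97 to 0.985 among contralateral arrays.

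Markers of the expected brain cells were present on both sides. Of the neuronal markers on the array, 8 of 9 were above the signal floor of 185.8 on all 16 arrays (Slc17a7, the cortical vesicular glutamate transporter, was above it on none). All 5 astrocyte and all 5 oligodendrocyte markers were above it on every array, and 5 of 7 microglial markers were (Csf1r was above it on none). The summed signal of the microglial markers ran from 6986 to 17670 on ipsilateral arrays and from 6515 to 11840 on contralateral arrays. The neuronal sum ran from 160700 to 192600 on ipsilateral arrays and from 153400 to 198600 on contralateral arrays. Blood markers summed to 44980 to 63210 on the ipsilateral side and 49660 to 67540 on the contralateral side. The neutrophil gene S100a8 was above the floor on 2 ipsilateral arrays and on no contralateral array, and S100a9 on 3 ipsilateral and 2 contralateral arrays. In such bulk tissue, more cells of a type and more RNA per cell cannot be told apart.

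Spp1 encodes osteopontin, a secreted matrix protein of activated phagocytes. Its signal on ipsilateral arrays had a lowest value of 116, a median of 2530 and a highest value of 9400, and on contralateral arrays it had a lowest value of 21.6, a median of 190 and a highest value of 369 (signals are given to 3 significant digits). The ipsilateral arrays fell into distant levels: 37 and 38 had 9400 and 9100, 39 and 40 had 4530 and 5010, and 33 to 36 had 116 to 519. Spp1 averaged 10.44 ± 2.49 log2 signal on the ipsilateral side and 7.85 ± 0.41 on the contralateral side (SD, n = 8 each). It rose by 2.59 (SE 0.58, 6.02-fold, limma adjusted p = 0.0498). The SE and p come from 1 estimate of spread over all 47 arrays and not from these SDs. Since the ipsilateral SD was the wider, the SE may understate the uncertainty. Of the arrays, 2 ipsilateral and 4 contralateral ones lay at the floor, so the fold is smaller than in unfloored signal. With any 1 of the 16 arrays left out, the difference lay between 2.196 and 3.004, and it passed in 5 of those 16 fits.

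Hspb1 encodes a small heat shock protein that protects filaments and is made by stressed astrocytes. On its probe set rc_AA998683_g_at the ipsilateral signal ran from 474 to 13700 with a median of 2140, and the contralateral signal from 349 to 1090 with a median of 413. Arrays 35, 37, 38, 39 and 40 lay above every contralateral array, and 38 alone reached 13700. On this probe set the difference was 1.98 log2 units, a rise of 3.96-fold (SE 0.43, limma adjusted p = 0.0498). Its other probe sets were not called: M86389cds_s_at differed by 1.59 (adjusted p = 0.0685), rc_AI176658_s_at by 1.07 (adjusted p = 0.167) and rc_AA998683_at by −0.06 (adjusted p = 0.997). The last of these reached 3760 on ipsilateral arrays and 4470 on contralateral arrays.

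Top2a encodes a topoisomerase that untangles DNA in dividing cells. Its probe set rc_AA899854_at had ipsilateral signals with a lowest value of 672, a median of 1180 and a highest value of 2070, against contralateral signals with a lowest value of 384, a median of 671 and a highest value of 881. Arrays 36 to 40 lay above all contralateral arrays, and array 40 was the highest. Arrays 37 to 40 had 1420 to 2070, and 33 to 36 had 672 to 936. The rise of Top2a was 1.8-fold, or 0.84 log2 units (SE 0.19, limma adjusted p = 0.0498). On the other 2 probe sets of the gene the differences were 0.36 and 0.33, with adjusted p of 0.709 and 0.871.

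Rpl21 encodes a protein of the large ribosomal subunit. Its probe set X15216cds_s_at had ipsilateral signals of 7810 to 9780 with a median of 8820, and contralateral signals of 5700 to 8940 with a median of 6440. All contralateral arrays but 41 lay below every ipsilateral array. The rise was 0.40 log2 units (SE 0.088, 1.32-fold, limma adjusted p = 0.0498) and was shared by all 8 ipsilateral arrays relative to the contralateral median. The other 3 probe sets of Rpl21 differed by 0.04, 0.05 and −0.04, so the call rests on 1 probe set of 4.

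Matk encodes a tyrosine kinase that restrains Src family kinases and is expressed in neurons and blood cells. Its ipsilateral signals ran from 4600 to 6110 with a median of 4800, and its contralateral signals from 4690 to 7810 with a median of 6620. The low contralateral array was 41, and the high ipsilateral one was 36. Matk fell by 0.38 log2 units (SE 0.081, limma adjusted p = 0.0498), and all 8 ipsilateral arrays lay below the contralateral median. Its side difference in hippocampus at 4 h was −0.44 (SE 0.082) and in cortex at 4 h −0.05 (SE 0.084).

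Of the called probe sets without a single gene name, AF028784cds#1_s_at had ipsilateral signals of 3110 to 19300 with a median of 10200, and contralateral signals of 1940 to 7490 with a median of 3420. Its rise was 1.37 log2 units (SE 0.29, 2.58-fold). AF028784mRNA#1_s_at, which belongs to the same sequence entry, rose by 0.85 (SE 0.19). The last one, rc_AI008836_s_at, carries several gene names in the annotation and rose by 0.79 (SE 0.18). On all 3 probe sets the arrays above every contralateral array were 37, 38, 39 and 40.

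**Figure D2:**
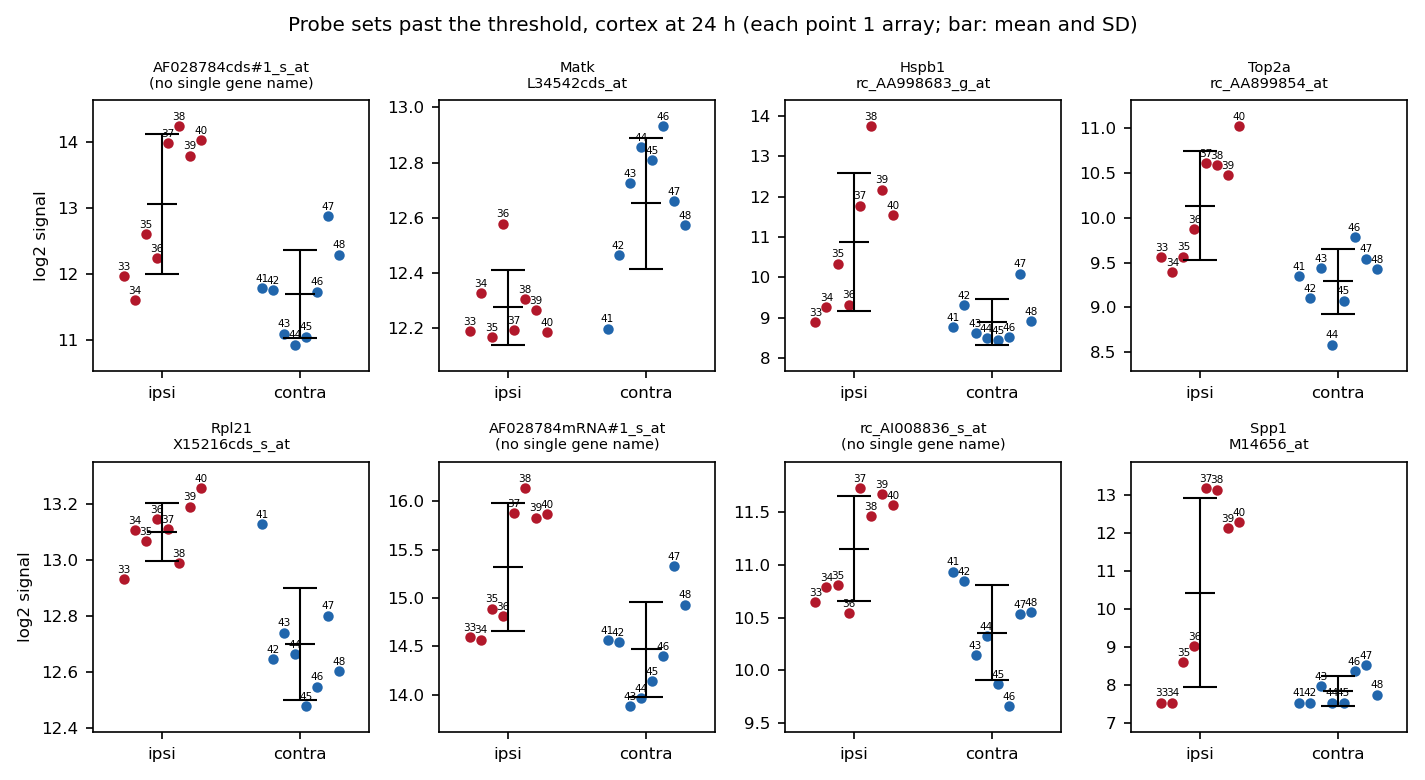
Each panel shows log2 signal of 1 called probe set on the 8 ipsilateral (red, left) and 8 contralateral (blue, right) arrays, numbered, with bars for mean and SD. Arrays 37 to 40 form the upper ipsilateral group for Spp1, Hspb1, Top2a and the probe sets without a single gene name. For Rpl21 and Matk they lie among the other ipsilateral arrays, with array 36 the highest for Matk.

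The spread between arrays was tested as well, by comparing absolute deviations from the group median across all probe sets. In this test 2 probe sets passed (0.0267% of those tested), both wider on the ipsilateral side. Spp1 had a mean deviation of 2.26 log2 units on ipsilateral arrays and 0.308 on contralateral arrays (limma adjusted p = 0.00124). For Spp1, 2 ipsilateral and 4 contralateral arrays lay at the floor, which narrows these deviations, and the contralateral signals ran from 21.6 to 369. RT1-DMb (rc_AI171966_at), a chaperone subunit that loads peptides onto MHC class II, had mean deviations of 0.66 on ipsilateral and 0.275 on contralateral arrays (limma adjusted p = 0.0194). Its ipsilateral signals had a lowest value of 1110, a median of 2090 and a highest value of 3180, and its contralateral signals a lowest value of 1090, a median of 1380 and a highest value of 1960. Arrays 37 to 40 lay between 2850 and 3180, and 33 to 36 between 1110 and 1320. The other 2 probe sets of RT1-DMb, U31599_g_at and U31599_at, differed between the sides by 1.01 and 0.64 (limma adjusted p = 0.413 and 0.517) and were not called for spread. At an unadjusted p under 0.05, 240 probe sets differed in spread, 122 wider and 118 narrower on the ipsilateral side. Leaving out any ipsilateral array ended both spread calls, and other settings called 0 to 34 probe sets. Neither call was kept with the floor at the 10th percentile or with log2(signal + 32).

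Gene groups are described by counts over their measured genes, each gene represented by its brightest probe set. The lists were chosen with earlier results of these data known, and genes of a list are not independent. The counts therefore describe the groups and do not test them. The count under an unadjusted p of 0.05 in a group is to be read against 4.52% of all tested probe sets on the higher side and 3.15% on the lower side, and the median of a group against the median of all tested, −0.02. The number of higher genes is to be read against all tested probe sets, of which 3275 were higher and 4176 lower. Some genes stand in more than 1 group (C1qb, Timp1, Cd44, Plaur, Lcn2, Stat3, Hspb1 and Ntrk2 among those named). A group mean is the average over its genes of log2 signal minus the contralateral mean of the gene.

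Among microglia and macrophage markers 17 of 19 were higher on the ipsilateral side, and their median difference was 0.16. Of these 19, 1 rose over all probe sets tested (Spp1), 8 (42.1%) were higher and 0 lower at an unadjusted p under 0.05, and 7 had 4 or more ipsilateral arrays above all contralateral arrays. Lgals3 encodes galectin-3, a lectin of phagocytes. Its ipsilateral signals ran from 406 to 5500 with a median of 1490, and its contralateral signals from 249 to 663 with a median of 487. Its difference was 1.64 (SE 0.42, 3.11-fold) and did not pass (limma adjusted p = 0.111). Arrays 37 to 40 lay at 2170 or more, and 33 to 36 at 804 or less. Cyba, a membrane subunit of the phagocyte NADPH oxidase, had ipsilateral signals of 259 to 2650 with a median of 1650, against contralateral signals of 247 to 911 with a median of 451 (difference 1.47, SE 0.39, adjusted p = 0.122). For Cyba, arrays 33 and 34 were also above every contralateral array, and array 36 was near the lowest. The calcium-binding marker Aif1 differed by 0.56 (adjusted p = 0.332), the lysozyme gene Lyz2 by 0.49 (0.529), the leukocyte phosphatase Ptprc by 0.06 (0.998) and the endotoxin co-receptor Cd14 by 0.01 (adjusted p = 1).

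The mean of the microglia and macrophage group was above its highest contralateral value of 0.211 on arrays 37, 38, 39 and 40, where it reached up to 1.14. The lowest ipsilateral array was at 0.00556. Over all alternative settings and arrays left out, the median difference of the group ran from 0.09, without array 38, to 0.36, with the stricter filter on dim probe sets, which left 17 of its genes, and 7 to 9 genes were higher at an unadjusted p under 0.05.

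Complement genes were higher for 10 of 12, with a median of 0.12 and 2 at an unadjusted p under 0.05. C1qb, a chain of the recognition protein C1q, had ipsilateral signals of 2580 to 7810 with a median of 4920, against contralateral signals of 2020 to 5000 with a median of 2850 (difference 0.67, SE 0.18, limma adjusted p = 0.122). C3, the central component of the cascade, was at the floor on all 8 contralateral arrays, with signals of 29.4 to 53.9. On the ipsilateral side arrays 37, 38, 39 and 40 had C3 signals of 684, 694, 372 and 352, and 33 to 36 had 16.2 to 44.9. C3 did not pass (limma adjusted p = 0.353).

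MHC, antigen presentation and interferon response genes were higher for 18 of 26 (median 0.07), with 4 higher and 0 lower at an unadjusted p under 0.05. Psmb8, an inducible proteasome subunit, had ipsilateral signals of 483 to 1810 with a median of 1190, and contralateral signals of 295 to 973 with a median of 640 (difference 0.80, SE 0.28, adjusted p = 0.351). The interferon-induced membrane protein gene Ifitm3 differed by 0.59 and the antiviral GTPase gene Mx2 by 0.62, neither past the threshold. Lysosomal protease and phagocytosis genes were higher for 11 of 16 (median 0.05), 2 of them at an unadjusted p under 0.05. The lysosomal tetraspanin gene Cd63 differed by 0.57 (SE 0.14, adjusted p = 0.111), with arrays 37 to 40 at 12500 to 20500 and every contralateral array at 10900 or less. The dipeptidyl peptidase gene Ctsc differed by 0.94 (SE 0.39, adjusted p = 0.541).

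Cytokine, chemokine and signalling genes did not lean to a side. Of 39 genes 20 were higher, with a median of 0.02, 2 higher and 1 lower at an unadjusted p under 0.05. Stat3, the transcription factor of interleukin-6 type signals, was above all contralateral arrays on 7 ipsilateral arrays and below all of them on array 34 (difference 0.59, SE 0.26, adjusted p = 0.566). The receptor gene Il6r differed by 0.37 and the endothelial adhesion gene Vcam1 by −0.34. Lbp, the endotoxin-binding protein of the acute phase, differed by 0.72 (SE 0.17, adjusted p = 0.0785), with ipsilateral signals of 151 to 671 (median 305) and contralateral signals of 43.5 to 242 (median 92.5), 7 of 8 contralateral arrays being at the floor. Neutrophil and lymphocyte markers were higher for 9 of 14 (median 0.07, 2 at an unadjusted p under 0.05). Among them Lcn2, an iron-scavenging lipocalin also made by astrocytes, had ipsilateral signals of 103 to 1390 and contralateral signals of 79 to 299 (difference 0.96, adjusted p = 0.589).

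Reactive astrocyte genes had the largest median of the 29 groups. The median difference of its 27 genes was 0.39, with 19 higher and 13 (48.1%) higher, 0 lower, at an unadjusted p under 0.05. Over all alternative settings and arrays left out, the median ran from 0.28 to 0.52 and that count from 8 to 15, with the lowest of both, 0.28 and 8 genes, without array 38. None passed over all probe sets through its brightest probe set. The called probe sets without a single gene name enter no group, so these counts leave them out. Vim, the intermediate filament vimentin, had ipsilateral signals with a lowest value of 3360, a median of 6400 and a highest value of 11700, and contralateral signals with a lowest value of 2780, a median of 3350 and a highest value of 7340. Its difference was 0.74 (SE 0.20, adjusted p = 0.143), with contralateral array 47 standing out at 7340 and ipsilateral arrays 37 to 40 at 8170 to 11700. Anxa3, a calcium-dependent membrane-binding annexin, was above every contralateral array on 7 of 8 ipsilateral arrays (486 to 974 ipsilaterally, 50.9 to 540 contralaterally, difference 1.01, SE 0.27, adjusted p = 0.123). The protease inhibitor gene Serpina3n differed by 1.02 (SE 0.28) and the galectin gene Lgals1 by 0.81 (SE 0.24), with adjusted p of 0.143 and 0.196.

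For Anxa3 and Lgals1, arrays 33 and 34 also lay above the contralateral median: Anxa3 had 554 and 486 there, against a contralateral median of 373, and Lgals1 had 1250 and 1820, against 895. Genes of astrocyte transport and homeostasis were higher for 5 of 16, with 1 higher and 1 lower at an unadjusted p under 0.05. Their median of −0.03 was near that of all tested probe sets, −0.02. The radial glia fatty acid binding protein gene Fabp7 differed by 0.54 (SE 0.19) and the neurotrophin receptor gene Ntrk2 by −0.17 (SE 0.065). The water channel gene Aqp4 differed by 0.25 (adjusted p = 0.841) and the glutamate transporter gene Slc1a2 by −0.07 (adjusted p = 0.978).

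Extracellular matrix and protease genes were higher for 23 of 38 (median 0.06), with 5 higher and 0 lower at an unadjusted p under 0.05. Timp1, an inhibitor of metalloproteinases, had ipsilateral signals of 1500 to 9570 with a median of 3160, against contralateral signals of 1240 to 2840 with a median of 1670 (difference 0.80, SE 0.32, adjusted p = 0.497). Cd44, the hyaluronan and osteopontin receptor, was at 950 to 1640 on arrays 37 to 40 and at 89.4 to 491 on 33 to 36, beside 94.4 to 497 on contralateral arrays. The urokinase receptor gene Plaur differed by 0.88 and the gelatinase gene Mmp9 by 0.72, with limma adjusted p of 0.34 and 0.348. Mmp9 was at the floor on 6 of 8 contralateral arrays.

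Cell cycle and DNA replication genes were higher for 22 of 33, with a median of 0.09. Of these 1 rose over all probe sets (Top2a), and 5 were higher and 1 lower at an unadjusted p under 0.05. Cdk1, the kinase that starts mitosis, had ipsilateral signals of 204 to 713 with a median of 391, and contralateral signals of 91.6 to 296 with a median of 191 (difference 0.82, SE 0.23, adjusted p = 0.143). Mcm6, a subunit of the replicative helicase, ran from 839 to 2090 on ipsilateral arrays and from 592 to 1070 on contralateral arrays (difference 0.55, SE 0.16, adjusted p = 0.219). Mcm5, of the same helicase, differed by 0.59 (adjusted p = 0.282). For these 3 genes arrays 37 to 40 lay above every contralateral array. Cdk1 was at the floor on 4 of 8 contralateral arrays, and Mcm5 on 4 contralateral arrays and 1 ipsilateral array.

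**Figure D3:**
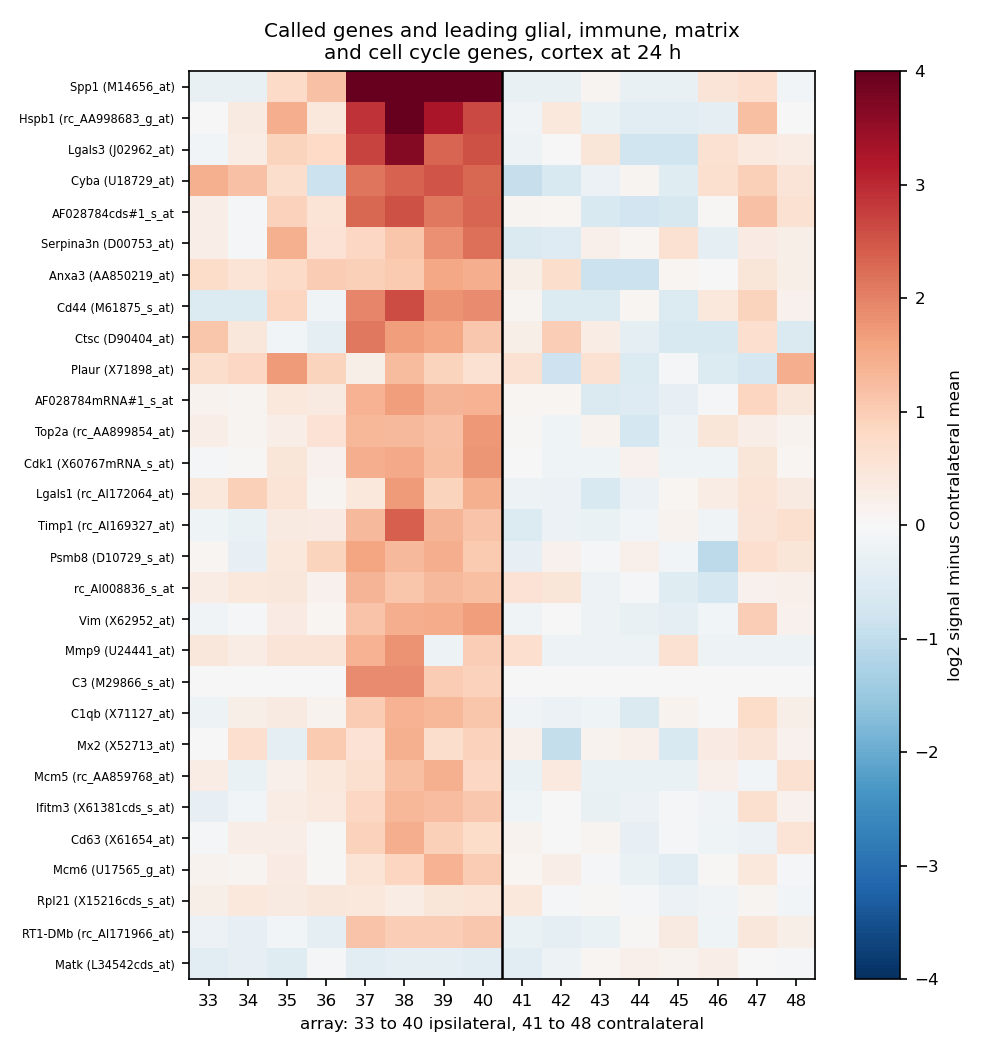
Rows are called probe sets and the leading glial, immune, matrix and cell cycle genes, columns are the 16 arrays with ipsilateral arrays left of the line, and colour is log2 signal minus the contralateral mean, cut at 4 units. The darkest red lies in arrays 37 to 40, led by Spp1, Hspb1 and Lgals3, and the C3 row is at the floor everywhere else.

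**Figure D4:**
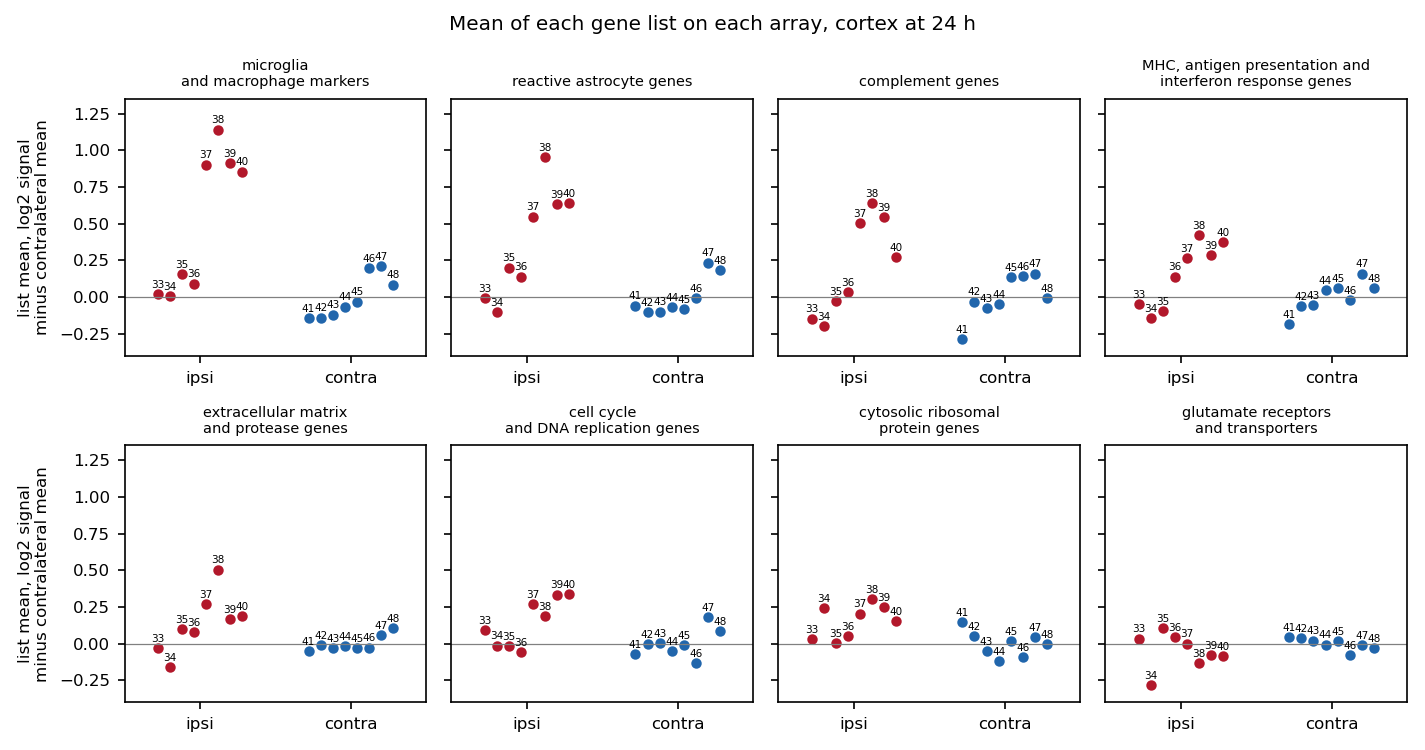
Each panel shows the mean of 1 gene group on the 8 ipsilateral (red) and 8 contralateral (blue) arrays, as log2 signal minus the contralateral mean, with array numbers. Arrays 37 to 40 are on top for glial, complement, MHC, matrix and cell cycle genes, and for ribosomal protein genes array 34 is among the top 5 as well.

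Genes of the cytosolic ribosome formed the group with the most members at a low p. On the ipsilateral side 34 of 37 were higher (median difference 0.17), and 21 (56.8%) were higher and 0 lower at an unadjusted p under 0.05. None passed over all probe sets through its brightest probe set, and among all 55 probe sets of these genes 47 were higher, 28 had an unadjusted p under 0.05 and 1 passed, that of Rpl21. The differences were small: among the brightest probe sets Rpl39 had the largest, 0.38 (SE 0.12), and among all 55 that of Rpl21 on X15216cds_s_at, 0.40, was the largest. Signals of small subunit genes were higher for 11 of 11 (median 0.16, 6 at an unadjusted p under 0.05) and those of large subunit genes for 23 of 26 (median 0.18, 15 at that level).

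Rpl24, of the large subunit, was among the genes next in order of p after the calls, on rc_AA817997_at. That probe set had ipsilateral signals of 10300 to 14500 (median 12100) and contralateral signals of 6920 to 11100 (median 9370). The difference was 0.39 (SE 0.098, adjusted p = 0.111). The brightest probe set of Rpl24 differed by 0.33 (SE 0.087, adjusted p = 0.124), and Rpl6, of the same subunit, by 0.29 (SE 0.083, adjusted p = 0.167). On both probe sets of Rpl24, arrays 34, 37, 38, 39 and 40 lay above every contralateral array. Rpl18, also of the large subunit, had ipsilateral signals of 8260 to 11400 with a median of 10000, and contralateral signals of 5860 to 8950 with a median of 8410 (difference 0.31, SE 0.082, adjusted p = 0.122). Rpl19 had ipsilateral signals of 32400 to 42800 with a median of 37700, against contralateral signals of 21300 to 35400 with a median of 31600 (difference 0.30, SE 0.084, adjusted p = 0.162). For Rpl19, 6 ipsilateral arrays lay above all contralateral ones, 33 and 34 among them. Of the small subunit, Rps9 differed by 0.23 (SE 0.069) and Rps23 by 0.17 (SE 0.057). Rack1, a scaffold bound to the small subunit, had ipsilateral signals of 9570 to 13200 and contralateral signals of 5480 to 10600 (difference 0.38, SE 0.096, adjusted p = 0.111). Contralateral array 46 had the lowest signal of the 16 arrays for Rpl18 (5860), Rpl19 (21300) and Rack1 (5480).

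The mean of the ribosomal group was above its highest contralateral value of 0.148 on 5 arrays, 34, 37, 38, 39 and 40, and ran from 0.00181 to 0.301 on ipsilateral arrays and from −0.119 to 0.148 on contralateral arrays. The group median stayed between 0.14 and 0.20, with 17 to 24 genes at an unadjusted p under 0.05, over all the alternative settings and arrays left out. In cortex at 4 h the same 37 genes had a median side difference of 0.02. The change with time was not called for any of them, and the smallest unadjusted p of that change was 0.00179, for Rpl19.

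Other parts of protein synthesis and breakdown, chosen after values had been seen, did not lean as far. Mitochondrial ribosomal protein genes had a median of 0.03, with 0 of 14 at an unadjusted p under 0.05. Translation elongation factor genes had a median of 0.08, with 2 of 5 higher at that level, and initiation factor genes a median of −0.03, with 0 of 17 higher and 1 lower. Proteasome subunit genes had a median of 0.00, with 2 of 27 higher.

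**Figure D5:**
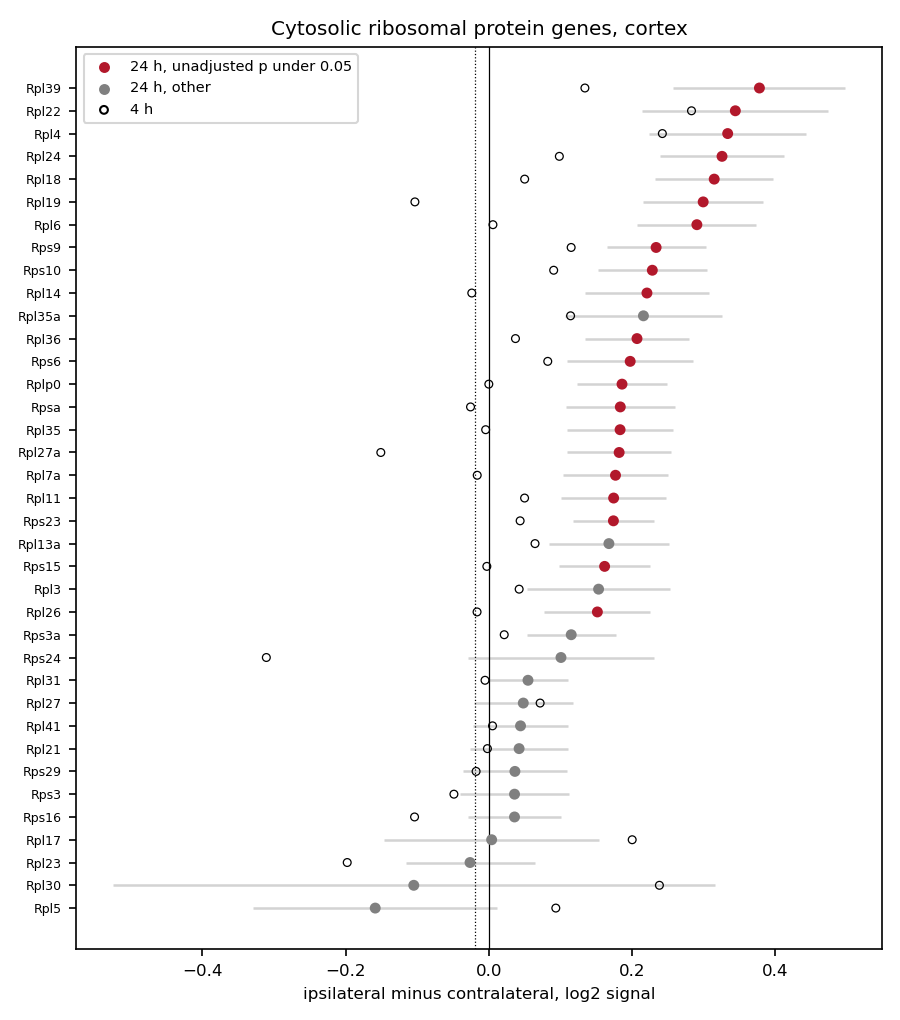
Points give the ipsilateral minus contralateral difference in log2 signal of 37 ribosomal protein genes in cortex at 24 h (filled, with bars of 1 SE, red where the unadjusted p is under 0.05) and at 4 h (open), with a dotted line at the median of all probe sets. Most filled points lie right of 0 (34 of 37), with Rpl39 at 0.38, while the open points scatter around 0.

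No gene of the stress, activity and apoptosis groups passed over all probe sets through its brightest probe set. At an unadjusted p under 0.05, 11.1% of heat shock genes were lower, beside 3.15% of all tested probe sets. At that level 9.68% of oxidative stress genes and 9.09% of immediate early genes were higher, beside 4.52% of all tested. Heat shock protein and chaperone genes were higher for 9 of 27 (median −0.05), with 0 higher and 3 lower at an unadjusted p under 0.05: the co-chaperone and chaperone genes Hspa4 (−0.25), Stip1 (−0.22) and Hsp90ab1 (−0.15). In this group and in that of reactive astrocytes Hspb1 is counted through its brightest probe set, rc_AA998683_at, which did not rise. Oxidative stress and metal handling genes were higher for 14 of 31 (median −0.03), with 3 higher and 1 lower at that level. Among them Hmox1, the haem-degrading oxygenase, had ipsilateral signals of 1200 to 5230 with a median of 3050, and contralateral signals of 1010 to 2070 with a median of 1300 (difference 0.91, SE 0.29, adjusted p = 0.279). Immediate early and activity-regulated genes were higher for 15 of 33 (median −0.03, 3 higher and 1 lower), and apoptosis genes for 7 of 16 (median −0.02, 0 at that level).

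Neuronal groups had medians below 0, by small amounts, beside a median of −0.02 for all tested probe sets. Glutamate receptor and transporter genes were higher for 15 of 33 (median −0.07), and 5 (15.2%) were lower and 1 higher at an unadjusted p under 0.05. The metabotropic receptor gene Grm7 had ipsilateral signals of 1530 to 2030 with a median of 1680, against contralateral signals of 1730 to 2390 with a median of 2020 (difference −0.24, adjusted p = 0.605). The NMDA receptor subunit genes Grin3a (−0.36) and Grin2d (−0.26) were also lower, and none of these passed. On the mean of this group arrays 34, 38 and 40 lay below every contralateral array, and 35 and 36 above all of them. GABA system genes were higher for 7 of 24 (median −0.08, 1 higher and 1 lower at that level), with the extrasynaptic receptor subunit Gabrd at −0.29 and the synthesising enzyme Gad1 at 0.25.

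Voltage-gated ion channel genes were higher for 12 of 42 (median −0.05, 1 higher and 2 lower at an unadjusted p under 0.05) and synaptic vesicle and neuronal genes for 18 of 41 (median −0.03, 1 and 1). Cytoskeletal genes of neurons were higher for 7 of 20 (median −0.04, 1 and 1): the tubulin gene Tubb2b, of growing neurites, differed by 0.33 and Tuba4a, of mature axons, by −0.25. For Tuba4a arrays 37, 38, 39 and 40 were the 4 below every contralateral array, at 7120 to 9200. Neuropeptide and hormone genes were higher for 11 of 28 (median −0.01, 3 and 1) and growth factor and receptor genes for 17 of 45 (median −0.03, 0 and 2).

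In the metabolic, myelin and vascular groups no gene passed over all probe sets through its brightest probe set. Glycolysis genes had the largest shares at an unadjusted p under 0.05, 10.5% higher and 10.5% lower. Over all tested probe sets these shares were 4.52% and 3.15%. Glycolysis genes were higher for 7 of 19 (median −0.02, 2 higher and 2 lower at an unadjusted p under 0.05), with the phosphofructokinase genes split between Pfkl (0.21) and Pfkm (−0.25). Oxidative phosphorylation genes were higher for 10 of 31 (median −0.04, 2 and 2). Cholesterol synthesis genes were higher for 1 of 15 (median −0.11, 0 and 1), and the 1 lower at an unadjusted p under 0.05 was mevalonate kinase, Mvk, at 1030 to 1270 on ipsilateral arrays and 1240 to 1540 on contralateral arrays (difference −0.27, adjusted p = 0.541). The other probe set of Mvk, M29472_at, differed by 0.07. Myelin genes were higher for 10 of 14 (median 0.04) and endothelial and pericyte markers for 9 of 19 (median 0), with 0 at an unadjusted p under 0.05 in both. Blood and plasma protein genes were higher for 7 of 21 (median −0.04, 1 and 1) and choroid plexus and meningeal markers for 6 of 18 (median −0.13, 1 and 0). The choroid plexus markers summed to 1476 to 35740 on ipsilateral arrays and 1554 to 49320 on contralateral arrays, and their part in the results was not tested.

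Among genes lower on the side of the injury Matk alone passed. Of the 12 named genes next in order of p, Slc4a3, a chloride and bicarbonate exchanger, had 7 of 8 ipsilateral arrays below every contralateral one (5270 to 6620 ipsilaterally, 6360 to 8450 contralaterally, difference −0.32, SE 0.093, adjusted p = 0.216). Rph3al, an effector of vesicle exocytosis, also had 7, with 291 to 650 on ipsilateral and 642 to 881 on contralateral arrays (difference −0.51, SE 0.17, adjusted p = 0.348). Ank3, the ankyrin of the axon initial segment, had 2740 to 4240 on ipsilateral and 3400 to 5010 on contralateral arrays (difference −0.34, SE 0.092, adjusted p = 0.143). St3gal5, which makes the ganglioside GM3, differed by −0.38 (SE 0.10, adjusted p = 0.143).

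The cell adhesion gene Cntn4 differed by −0.61 (SE 0.18, adjusted p = 0.235), and here the arrays below all contralateral ones were 33, 34, 35 and 36. It ran from 639 to 1310 on ipsilateral and from 943 to 1720 on contralateral arrays. The others included Med25 (−0.43), of the Mediator complex, and Ube2d2 (−0.38), a ubiquitin-conjugating enzyme. Vps33a (−0.34), of endosome tethering, and Dad1 (−0.28), of the oligosaccharyltransferase, were also lower. The remaining ones were Homer1 (−0.23 on AB017140_g_at), a postsynaptic scaffold, Pcsk2 (−0.20), a prohormone convertase, and Myl12b (−0.17), a myosin light chain.

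Among higher genes just past the calls, some were of no group above. H19, an imprinted non-coding RNA, had ipsilateral signals of 113 to 3260 with a median of 1480, and contralateral signals of 53.8 to 436 with a median of 282 (difference 1.72, SE 0.44, 3.28-fold, limma adjusted p = 0.111). Arrays 35 to 40 lay above every contralateral array, and 33 had the lowest ipsilateral value. Aprt, of adenine salvage, ran from 3700 to 5620 on ipsilateral and from 3000 to 4050 on contralateral arrays (difference 0.32, adjusted p = 0.111). The RNA-binding protein gene Hnrnpa3 differed by 0.67 (adjusted p = 0.111) and the peroxisomal enzyme gene Hsd17b4 by 0.41 (adjusted p = 0.122). For Hsd17b4 the 5 arrays above all contralateral ones were 34, 35, 36, 39 and 40.

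The test of whether a side difference at 24 h departed from that at 4 h called 0 of 7503 probe sets (0%), with a smallest adjusted p of 0.279 and 421 at an unadjusted p under 0.05 in limma. No gene is therefore shown to differ between the sides at 24 h alone. Top2a, which had the smallest adjusted p of the called genes in this test (0.279), differed by 0.84 at 24 h and by −0.24 (SE 0.19) at 4 h. At 4 h its ipsilateral signals ran from 422 to 645 and its contralateral signals from 500 to 857. Spp1 differed by 2.59 at 24 h and by 1.17 (SE 0.60) at 4 h, where ipsilateral signals ran from 151 to 1350 with a median of 532, and contralateral signals from 147 to 306 with a median of 248. The change of Spp1 was 1.42 (SE 0.84, adjusted p = 0.932). Hspb1 differed by 0.63 at 4 h, Lgals3 by 0.45, Timp1 by 0.57 and Hmox1 by 0.62.

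Against the side difference in hippocampus at 4 h, 4 of 7503 probe sets (0.0533%) differed, all in the direction of a lower difference in cortex at 24 h, and 1121 had an unadjusted p under 0.05. Region and hours both differ in this test and cannot be told apart. Homer1 (AF093268_s_at) differed between the sides by −0.23 in cortex at 24 h and by 0.78 in hippocampus at 4 h (difference −1.01, SE 0.20, limma adjusted p = 0.0356). In cortex at 24 h its ipsilateral signals ran from 4740 to 7170 and its contralateral signals from 5370 to 8230, and in hippocampus the ipsilateral ones ran from 2830 to 5210 and the contralateral ones from 1350 to 3520. No other probe set of Homer1 was called in this test. On AB017140_g_at the side difference was −0.23 in cortex and 0.12 in hippocampus (difference −0.35, limma adjusted p = 0.157). The brain kinase gene Cdk17 passed on both of its probe sets (−0.47, adjusted p = 0.0491, and −0.69, adjusted p = 0.0381), with cortical differences of −0.10 and −0.02 and hippocampal ones of 0.37 and 0.67. The mitochondrial glycerol phosphate dehydrogenase gene Gpd2 had −0.26 in cortex and 1.04 in hippocampus (difference −1.30, adjusted p = 0.0491). For all 4 probe sets the side difference in cortex at 24 h did not itself pass. The count moved to 404 with array weights and to 0 when each array's 10th percentile was added as a covariate. Spp1 (2.01, SE 0.83, adjusted p = 0.251), Hspb1 and Top2a were not called in this test.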

How the data were processed

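Total RNA of rat brain was hybridised to oligonucleotide arrays. Per the labels, each array holds 1 sample, and the intensity values were analysed as the authors deposited them, as 1 linear signal per probe set. How the signals were summarised and scaled is not given in the sources used here. Since the 2%-trimmed means of the arrays lay within 5% of each other, no further normalization was applied. Signals below the 25th percentile of all values (185.8) were set to it and log2 was taken. The deposited tables hold 8799 probe sets, of which 59 are controls, and the 7503 others that exceeded the floor on 7 or more of 47 arrays were tested. In the platform annotation 7018 probe sets name 1 gene, 308 name several and 1473 name none. A single gene was named for 6122 of those tested, and 6104 of these matched RefSeq by gene ID.

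Groups came from the labels. All 47 arrays entered 1 fit of 6 group means (limma 3.58.1 with an intensity trend, R 4.3.3), two-sided, with Benjamini-Hochberg adjustment within each comparison and a threshold of 0.05. The groups share 1 estimate of spread per probe set, so an SE is not specific to the groups compared. Absolute deviations from the group median were fitted the same way to compare spread. Further contrasts set the side difference at 24 h against that at 4 h and against that of hippocampus at 4 h. The steps were tested on simulated data. In this text "rose" and "fell" are used for probe sets past the threshold, and every adjusted p comes from limma unless an exact permutation test is named. The number of arrays limits the precision.

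The rule for naming took every probe set past a threshold, the 12 higher and 12 lower next in order of p, up to 4 genes of each of 29 gene lists by p, every probe set of a called gene, and the calls against hippocampus. Not every list gene it took is described: those left out stand in the counts of their groups. A few list members and marker genes (Aif1, Lyz2, Ptprc, Cd14, Aqp4, Slc1a2, Rpl39, Rps9, Rps23) are named outside this rule, after their values were seen. Members and lists were chosen with earlier results of these data known. Alternatives were other floors, filters, normalization, weights, a robust fit, a covariate and leaving out each array. Start regions are from RefSeq, build GRCr8.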

Additional observations from a re-analysis of the deposited data

Results flagged for a closer look

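In 226 tests of single groups of 8 arrays, 16 had 1 array far from the other 7. Of these, 7 were ipsilateral and 9 contralateral, with 9 arrays high and 7 low. The cutoff is meant to give about 1 in 20 for independent, normally distributed values. Here the values were floored and the probe sets were picked from these same data, so the count cannot be read against that rate. The values below are the gap to the nearest array as a share of the whole range of the group, on the floored log2 scale, and the signals are those of the array apart and of its neighbour.

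Among ipsilateral arrays the share was 0.613 for Matk (array 36 high, 6110 beside 5130), 0.705 for Rph3al (array 40 low, 291 beside 513) and 0.557 for Stat3 (array 34 low, 535 beside 876). It was 0.551 for the calcium channel gene Cacna1d (array 34 low, 538 beside 937) and 0.588 for the potassium channel gene Kcnd3 (array 40 high, 2690 beside 1760). It was 0.619 for Pfkl (array 38 high, 4700 beside 3350) and 0.587 for the kinase gene Sgk1 (array 33 low, 1660 beside 2160).

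Among contralateral arrays the share was 1 for Lbp (array 46 high, 242 beside 150) and 1 for RT1-DMb on U31599_at (array 42 high, 199 beside 174), where the other 7 lay at the floor. It was 0.599 for Ank3 (array 41 low, 3400 beside 4290), 0.588 for Vim (array 47 high, 7340 beside 4150) and 0.542 for Med25 (array 45 high, 6770 beside 5540). It was 0.957 for the neuropeptide gene Calca (array 41 high, 258 beside 188) and 0.615 for the ATP synthase gene Atp5f1c (array 47 low, 11200 beside 14700). It was 0.637 for the glutamate transporter gene Slc1a6 (array 43 high, 270 beside 213) and 0.566 for Homer1 on AF093268_s_at (array 47 low, 5370 beside 6840). For Calca and Slc1a6 most of the contralateral arrays lay at the floor.

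The side difference in cortex at 24 h departed from that in hippocampus at 4 h for 4 probe sets, by −1.01 for Homer1 (AF093268_s_at), −0.473 for Cdk17 (AB005540_at), −0.685 for Cdk17 (AB005540_g_at) and −1.3 for Gpd2 (X78593_at), in limma's test of the difference. Region and hours cannot be told apart there.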

How the results depend on the processing

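The 8 calls between the sides became 0 without the filter on dim probe sets, 0 in a fit of the 16 arrays alone, 38 with array weights, 50 with 1 weight per group and 13 with the 10th percentile of signal as covariate, and lay at 8 to 10 under the other floors, the stricter filter, a filter over the 16 arrays that was chosen after seeing the data, quantile normalization and the robust fit. With 1 array left out the count ran from 0 to 26, and it was 0 in 10 of 16 fits. The count of spread calls, 2 in the main fit, became 1 with the floor at the 10th percentile and 0 with log2(signal + 32). Neither of the original 2 was kept in these settings. The count became 1 with the stricter filter (1 of the original 2) and 6 on the 16 arrays alone (1 of the original 2 among them). With deviations from the group mean it became 34, with both of the original 2 among them. With 1 array left out the count ran from 0 to 5. The change with time, 0 probe sets, gave 1 with the floor at the 10th percentile. The 4 calls against hippocampus became 8 after quantile normalization, 404 with array weights, 52 with 1 weight per group, 2 with the robust fit and 0 with the covariate. The cause of these moves was not tested.

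The sign turned for uncalled probe sets near 0: Hspb1 (rc_AA998683_at) was 0.02541 with the covariate and ran from −0.1845 to 0.01444 with 1 array left out, Rpl21 (rc_AA849648_g_at) from −0.1327 to 0.0557 and Cdk17 (AB005540_g_at) from −0.05452 to 0.005692. No paired analysis was possible because each extraction number occurs once and no label ties the sides of an animal together. Signals under the floor carry no order, so folds of dim genes such as Spp1 and C3 are understated.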
